A study of Mus musculus with 6 samples.

Results

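The genes of the 5 NF-κB subunits, of 4 IκB proteins and of the ubiquitin-editing inhibitor A20 were followed in sorted marginal zone B cells of the mouse. They were chosen by name, as the transcription factor family and proteins that hold it in check. All 10 were among the 14864 genes of the deposited table, and all 10 passed the filter that kept 14855 genes with a mean of at least 10 normalised reads. The cells were flow-sorted from the spleens of C57BL/6 mice at 8 weeks of age. In 3 libraries, called cKO below, the genotype is given as CK2[alpha]-cKO, a conditional knockout of the catalytic CK2α subunit, and in 3 libraries, called WT below, it is given as WT. The driver of the deletion, the deleted exons, the sort gates and the number of mice behind a library are not given in the sources. P-values therefore rest on how far these libraries spread, and some of that spread may be technical.

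NF-κB proteins bind DNA as dimers through a shared Rel homology domain. RelA, c-Rel and RelB carry an activation domain, whereas p105 (Nfkb1) and p100 (Nfkb2) are the precursors of the partners p50 and p52. IκB proteins hold the dimers in the cytoplasm until the IκB kinase marks them for degradation after signals from the B cell receptor, Toll-like receptors or CD40. Several inhibitors are themselves induced by NF-κB, which closes a feedback loop. In mice, loss of Nfkb1 or of Nfkbid is known to leave few marginal zone B cells, and CK2 is known to phosphorylate both IκBα and RelA.

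RefSeq promoter windows (GRCm38.p6) were at hand for 7 of the 10 genes, and 130 bases are shown for 5 of them. These are the 3 genes with a window that fell in cKO, Rel, Tnfaip3 and Nfkbid, and the classical inhibitor genes Nfkbia and Nfkbie, which did not pass the test. The stretches hold matches to the κB consensus, the DNA element bound by NF-κB dimers. Each runs 5′ to 3′ along its gene, and capitals mark the letters that match the consensus on either strand. The stretch of Rel is chr11:23770970-23771099 (minus strand), that of Tnfaip3 is chr10:19015411-19015540 (minus strand) and that of Nfkbid is chr7:30422166-30422295 (plus strand). The stretch of Nfkbia is chr12:55492648-55492777 (minus strand) and that of Nfkbie is chr17:45555570-45555699 (plus strand). All end at the base before a RefSeq start, except that of Nfkbid, which covers bases 240 to 111 before the second of its 3 starts.
Rel: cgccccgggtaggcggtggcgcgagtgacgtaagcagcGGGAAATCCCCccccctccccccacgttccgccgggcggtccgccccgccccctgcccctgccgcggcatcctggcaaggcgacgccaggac
Tnfaip3: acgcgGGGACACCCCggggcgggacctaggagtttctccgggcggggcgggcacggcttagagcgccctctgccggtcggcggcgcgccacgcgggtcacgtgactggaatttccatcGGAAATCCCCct
Nfkbid: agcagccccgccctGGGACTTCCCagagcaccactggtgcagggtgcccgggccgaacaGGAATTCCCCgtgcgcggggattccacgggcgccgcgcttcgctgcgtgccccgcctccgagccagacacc
Nfkbia: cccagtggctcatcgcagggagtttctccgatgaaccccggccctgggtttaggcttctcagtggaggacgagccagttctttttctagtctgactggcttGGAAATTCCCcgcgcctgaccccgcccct
Nfkbie: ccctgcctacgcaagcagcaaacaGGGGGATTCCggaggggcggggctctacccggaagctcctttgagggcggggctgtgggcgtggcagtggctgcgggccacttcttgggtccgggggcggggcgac

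The run of capitals in Rel holds overlapping matches on both strands, the first of which begins 92 bases before the start. Tnfaip3 has one match from base 125 and another, on the opposite strand, from base 12. Nfkbid has matches from bases 226 and 181, Nfkbia from base 29 and Nfkbie from base 106. Over the 250 bases before each start, 8 of the 12 windows of the 7 genes held the consensus, in Rel, Nfkb2, Nfkbia, Nfkbie, Nfkbid and Tnfaip3. No match was found for Rela, or before the starts of Nfkbid and Tnfaip3 whose stretches are not shown. Of all 32851 RefSeq windows, 3.9% held one. Both strands were searched. Matches thus lay before genes that fell and before genes that did not pass the test. Nfkb1, Relb and Nfkbiz had no window in the table.

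Of the 10 genes, 4 fell in cKO and 0 rose by limma at an adjusted p under 0.05, the threshold behind every use of rose, fell and called here. The 4 were Rel, Nfkbid, Nfkbiz and Tnfaip3. Of all genes tested, 4.97% fell and 5.08% rose. At an unadjusted p under 0.05, 5 of the 10 were lower and 1 was higher, against 13.3% lower and 13.5% higher of all genes tested. Both edgeR and DESeq2 on the recovered reads called 4 lower and 0 higher. Over all genes edgeR called 9.71% and DESeq2 11.6%, with 4.73% and 5.75% of genes lower. Without a trend in the prior variance limma called 215 of all genes and none of the 10, with adjusted p values of 0.0658 to 0.146 for the same 4 genes. In that fit 4 of the 10 were lower at an unadjusted p under 0.05, against 12.0% of all genes. In the same 4 genes every cKO library lay below every WT library, as it did in 15.6% of all genes tested, and the groups did not overlap, either way, in 31.6%. In these bulk libraries fewer cells of a kind and less RNA per cell cannot be told apart.

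**Figure D1:**
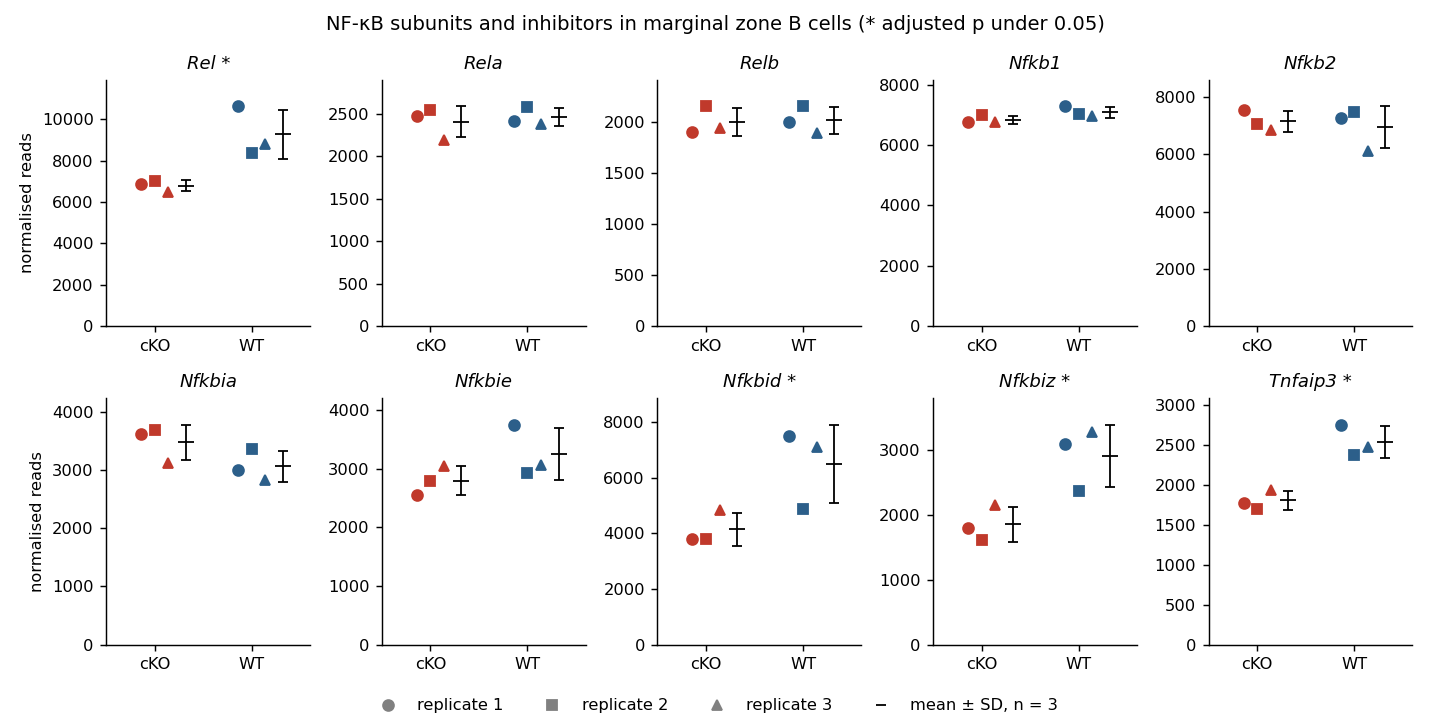
Normalised reads (y axis, from 0) of the 10 genes in each library, cKO on the left in red and WT on the right in blue, with a symbol for each replicate number and the mean ± SD (n = 3) in black. A star marks the 4 called genes, whose cKO libraries all lie below their WT libraries. The groups of Nfkbid come closest, with 4830.2 in cKO replicate 3 and 4871 in WT replicate 2.

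The median log2 difference over the 10 genes was -0.13, against -0.0009 over all genes tested. Of the 10, 8 were below 0, as were 7450 of the 14855 genes tested. The 8 include Rela, Relb and Nfkb1, at -0.04, -0.01 and -0.05. Log2 differences are cKO minus WT on log2(normalised reads + 1), and ± after one is the standard error. Values of single libraries are given for replicates 1, 2 and 3 of a group in turn. Directions rest on the labels, since the targeted gene did not separate them. Csnk2a1, which encodes CK2α, had 4124, 3951 and 4060.4 normalised reads in cKO and 4069.5, 3861 and 3939 in WT, a log2 difference of 0.03 ± 0.05 (limma adjusted p = 0.734). A count over the whole gene checks the label only as far as the deleted exons weigh in it. The libraries held 20054583 to 23503756 recovered reads in cKO and 18778776 to 21067977 in WT. Of 12 listed marginal zone B cell markers all were measured. Cr2, which encodes CD21, stood at 59691 to 76108 in cKO and 64330 to 68241 in WT and was not called, as were 6 others. The other 5 rose, against 5.08% of all genes tested. They were Asb2 (log2 difference 1.29), Cd1d1 (0.70), Plac8 (0.50), Cd9 (0.50) and Myof (0.46), named after their values were seen. The summed level of the 12 was 146264 to 178506 in cKO and 143481 to 152484 in WT.

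Among the subunits, Rel (ENSMUSG00000020275), the gene of c-Rel, fell by 26.4%. It had 6859.6, 7033 and 6508 normalised reads in cKO, against 10644, 8395 and 8807 in WT. The cKO libraries were close to each other, and WT replicate 1 stood above the other WT libraries. The means were 6800.3 ± 268 in cKO and 9282 ± 1197 in WT (SD, n = 3 each), a log2 difference of -0.44 ± 0.08 (limma adjusted p = 0.00964), and the 95% interval of the change ran from -35.0% to -16.6%. The call held in each of the 6 fits that left out a library, with log2 differences from -0.51 to -0.34. The highest adjusted p among them, 0.0479, was reached without cKO replicate 3.

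Rela, which encodes the activating partner of p50 in the classical pathway, was not called. It stood at 2473, 2544 and 2195 normalised reads in cKO and at 2417, 2582 and 2382 in WT. The groups overlapped, with a log2 difference of -0.04 ± 0.07 (adjusted p = 0.781) and a 95% interval of the change from -11.9% to 8.03%. Relb, the gene of the subunit that pairs with p52 in the alternative pathway, had 1899, 2151.1 and 1933 in cKO and 1997, 2151.0 and 1884 in WT. Replicate 2 was the highest library of each group, and the interval of the change ran from -10.8% to 10.2% (adjusted p = 0.936).

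The precursor genes were not called either. Nfkb1 gave 6776, 6981 and 6753 normalised reads in cKO, against 7289, 7020.0 and 6950.1 in WT. Its groups overlapped by a narrow margin, and the interval of the change ran from -10.6% to 4.09% (adjusted p = 0.549). Nfkb2 had 7566, 7047.5 and 6846 in cKO and 7260.5, 7480.5 and 6108 in WT. WT replicate 3 was the lowest library, the groups overlapped, and the interval ran from -8.21% to 16.1% (adjusted p = 0.752). Of the merged exons of Nfkb2, 6.52% lie opposite exons of Psd and 11.6% opposite a noncoding transcript from the shared promoter, and without a stated strand setting the reads there cannot be told apart. The signs of the differences of Rela, Relb and Nfkb2 turned when single libraries were left out, and that of Nfkb1 did not.

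**Figure D2:**
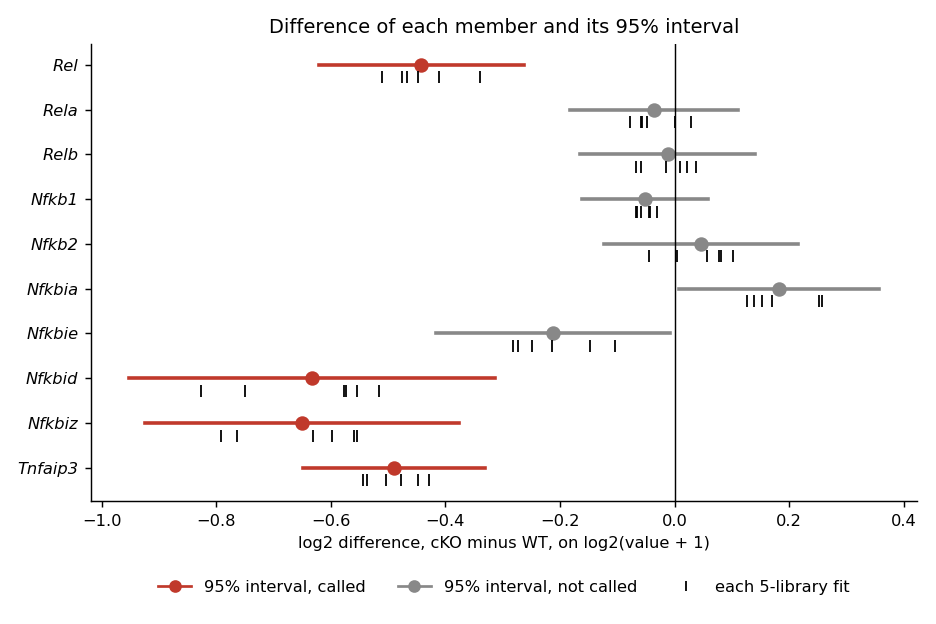
Log2 difference of each gene, cKO minus WT, on log2(normalised reads + 1) (x axis), with its 95% interval, red where called and grey where not. Black ticks show the 6 fits that each leave out a library. The ticks of Rel, Nfkbid, Nfkbiz and Tnfaip3 lie between -0.83 and -0.34, and those of Rela, Relb and Nfkb2 fall on both sides of 0.

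Levels of different genes can be set against each other per kilobase of merged exons (GENCODE M21), a length that counts every annotated isoform. The order of genes, the shares and the ratios per kb depend on that length, 12.1 kb for Nfkb1 and 4.58 kb for Nfkb2. Before that division, the mean reads of Nfkb1 and Nfkb2 were 6836.5 and 7153.5 in cKO, and 7086 and 6950 in WT. Per kb, Nfkb2 was the most abundant subunit gene, with 1560.5 ± 81.0 normalised reads per kb in cKO and 1516 ± 161 in WT (SD, n = 3 each). Rel followed at 911 ± 35.8 per kb in cKO and 1243 ± 160.3 in WT. Rela came next at 783 ± 60.1 in cKO and 801 ± 34.8 in WT, and Rel and Rela did not overlap in either group. Nfkb1, at 567 ± 10.4 in cKO and 588 ± 14.8 in WT, stood above Relb, at 513 ± 35.3 in cKO and 518 ± 34.5 in WT. In cKO the lowest value of Nfkb2, 1494, was far above the highest of Rel, 942. In WT the libraries of these genes overlapped, from 1332 to 1632 for Nfkb2 and from 1124 to 1426 for Rel.

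As a share of the summed level per kb of the 5 subunit genes, Rel made up 20.8%, 21.2% and 21.1% in cKO, against 29.0%, 23.8% and 27.1% in WT. All shares in cKO were below the lowest in WT. The share of Nfkb2 was 37.3%, 34.6% and 36.1% in cKO and 32.2%, 34.5% and 30.6% in WT, nearly level between replicate 2 of each group. The ratio of Rel to Rela per kb was 1.14, 1.14 and 1.22 in cKO, against 1.81, 1.34 and 1.52 in WT. The ratio of Rel to Nfkb1 per kb was 1.64, 1.63 and 1.56 in cKO, against 2.36, 1.93 and 2.05 in WT, again with no overlap. These shares and ratios were chosen with the fall of Rel known and are a description, with no test.

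**Figure D3:**
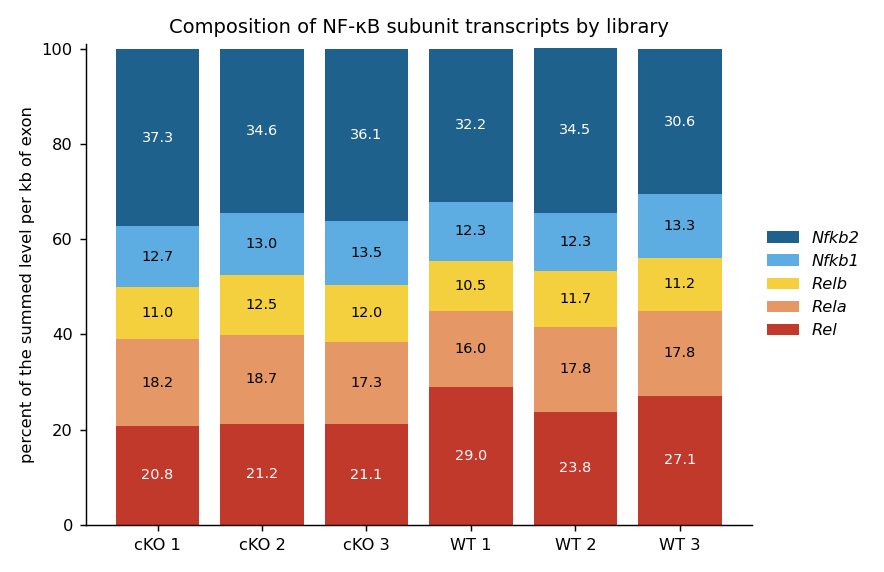
Share (percent, y axis) of each of the 5 subunit genes in their summed normalised reads per kb of merged exons, in the cKO libraries (left) and the WT libraries (right). Rel, at the foot of each bar, takes 20.8% to 21.2% in cKO and 23.8% to 29.0% in WT.

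The genes of the classical cytoplasmic inhibitors had differences of opposite sign, and neither was called. Nfkbia, which encodes IκBα, had 3610.3, 3683 and 3124.5 normalised reads in cKO, against 2999, 3357 and 2823 in WT. WT replicate 2 exceeded cKO replicate 3, so the groups overlapped, and the log2 difference was 0.18 ± 0.08 (limma adjusted p = 0.168). The 95% interval of the change ran from 0.555% to 28.1%. Nfkbie, which encodes IκBε, an inhibitor of c-Rel and RelA dimers in B cells, had 2557, 2800.2 and 3042 in cKO and 3755, 2935 and 3069 in WT. WT replicate 1 stood well above the other libraries and WT replicate 2 lay below cKO replicate 3. The log2 difference was -0.21 ± 0.09 (limma adjusted p = 0.172). Both were among those that passed an unadjusted p of 0.05. Each kept its sign in all 17 alternatives, and whether the pair differs from each other was not tested.

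Both genes of nuclear IκB proteins fell, by the largest proportions among the 10 genes. Unlike IκBα, these proteins act on NF-κB in the nucleus. Nfkbid (ENSMUSG00000036931), which encodes IκBNS, had 3804, 3782 and 4830.2 normalised reads in cKO, against 7492, 4871 and 7101 in WT. The highest cKO library and the lowest WT library were nearly level, whereas WT replicates 1 and 3 lay far above every other library. The means of 4139 ± 599 in cKO and 6488 ± 1414 in WT (SD, n = 3 each) gave a log2 difference of -0.63 ± 0.15 (limma adjusted p = 0.0232). The gene fell by 35.5%, with an interval from -48.3% to -19.5%. The call was lost without WT replicate 1 (log2 difference -0.52, adjusted p = 0.102), without WT replicate 3 (-0.56, adjusted p = 0.0977), without cKO replicate 1 (-0.58, adjusted p = 0.0533) and under robust moderation (adjusted p = 0.139).

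Nfkbiz (ENSMUSG00000035356), which encodes IκBζ, a nuclear cofactor induced by Toll-like receptor signals, had 1794, 1613 and 2156 normalised reads in cKO, against 3102, 2372 and 3276 in WT. As with Nfkbid, cKO replicate 3 was the highest of its group and WT replicate 2 the lowest of its own, but here a wider gap lay between them. The means were 1854 ± 276 in cKO and 2917 ± 480 in WT (SD, n = 3 each), a log2 difference of -0.65 ± 0.12 (limma adjusted p = 0.0112). The gene fell by 36.3%, with an interval from -47.3% to -23.0%. Among all genes tested, 213 that fell had a difference below that of Nfkbiz. Without WT replicate 1 the adjusted p was 0.0605 (log2 difference -0.60), without WT replicate 3 it was 0.0569 (-0.56), and under robust moderation it was 0.0617.

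Tnfaip3 (ENSMUSG00000019850) encodes A20, which edits ubiquitin chains upstream of the IκB kinase and damps its activation. It had 1771, 1700.0 and 1942 normalised reads in cKO, against 2755, 2371 and 2481 in WT. The libraries of each group were close to each other and the groups stood clearly apart. The means of 1804 ± 124 in cKO and 2536 ± 198 in WT (SD, n = 3 each) gave a log2 difference of -0.49 ± 0.07 (limma adjusted p = 0.0034). The gene fell by 28.8%, with an interval from -36.2% to -20.5%. Its adjusted p was the smallest of the 10 genes, and 128 genes of the whole table had a smaller one. The call held in each of the 6 fits that left out a library, with log2 differences from -0.54 to -0.43 and adjusted p values of up to 0.0184.

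Ordered by level per kb, the leading inhibitor gene was Nfkbia in cKO and Nfkbid in WT. Nfkbia had 2157 ± 189 normalised reads per kb in cKO and 1900.3 ± 169 in WT, and Nfkbid had 1764 ± 255 in cKO and 2766 ± 603 in WT. The libraries of this pair overlapped in each group, so the order rests on means. The ratio of Nfkbia to Nfkbid per kb was 1.38, 1.42 and 0.943 in cKO, against 0.583, 1.0 and 0.579 in WT. The groups overlapped there too, with cKO replicate 3 just below WT replicate 2. The ratio of Nfkbia to Nfkbie per kb was 2.67, 2.49 and 1.94 in cKO and 1.51, 2.16 and 1.74 in WT, also overlapping.

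Lower in that order, Nfkbie had 919 ± 79.7 normalised reads per kb in cKO and 1068 ± 145 in WT, overlapping with Rel in each group. Nfkbiz had 369.5 ± 55.1 in cKO and 581 ± 95.6 in WT. Its libraries lay below those of Nfkb1 and Relb in cKO and overlapped both in WT. Tnfaip3 was the least abundant of the 10 genes in each group, at 249.7 ± 17.2 per kb in cKO and 351 ± 27.4 in WT, with no overlap with its neighbour in the order.

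The 4 genes that fell were all lowest, within WT, in replicate 2, and so was Nfkbie. The other 5 genes had their lowest WT value in replicate 3. Of the 739 genes called lower in the whole table, 370 had their lowest WT value in replicate 2, 151 in replicate 1 and 218 in replicate 3. On log2 values centred on the mean of the 6 libraries, Nfkbid stood at -0.43, -0.44 and -0.08 in cKO, against 0.55, -0.07 and 0.47 in WT. Nfkbiz stood at -0.36, -0.52 and -0.10 in cKO, against 0.43, 0.04 and 0.51 in WT. The values of Rel were -0.21, -0.17 and -0.28 in cKO, against 0.43, 0.08 and 0.15 in WT, so its cKO replicate 3 was the lowest and not the highest of its group.

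Immediate early genes, which cells switch on within minutes of a stimulus, moved with these libraries. Of 24 measured, 14 fell and the other 10 were not called, with a median log2 difference of -0.54. That is 58.3% called, against 4.97% of all genes that fell and 10.1% called either way. Jun, a subunit gene of AP-1, had 9686, 6588 and 8427 normalised reads in cKO, against 15955, 12531 and 15371 in WT. The mean centred log2 level of the list was -0.27, -0.31 and -0.21 in cKO, against 0.42, -0.01 and 0.38 in WT, again with WT replicate 2 between the other libraries. The summed level was 95907 to 100786 in cKO and 121107 to 149145 in WT. Its part in the falls of Rel, Nfkbid, Nfkbiz and Tnfaip3 was not tested.

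Heat shock genes and markers of other B cells and T cells are given beside them for the same reason. Of 9 heat shock genes 2 fell, Hspa1a and Hspa1b, and 1 rose, Hspb1, against 4.97% lower and 5.08% higher of all genes tested. These 3 were named after their values were seen. The list had a mean centred log2 level of -0.34, -0.15 and -0.21 in cKO, against 1.04, -0.44 and 0.11 in WT, so WT replicate 1, the highest library for Rel, Nfkbid and Tnfaip3, was the highest here too. Their summed level was 56711 to 62142.5 in cKO and 44362 to 81205 in WT, which overlap.

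Of 6 follicular B cell markers 2 fell, Ccr7 and Klf2, against 4.97% of all genes tested. Klf2 was one of the 3 most abundant of the list, with Cxcr5 and Ighd, which were not called. Cxcr5 of the same list had the opposite sign, with all cKO libraries above all WT libraries (log2 difference 0.26, limma adjusted p = 0.0547). The summed level of the list was 30721 to 44769 in cKO and 40479.5 to 43529.8 in WT, which overlap. The called follicular markers were lower and the called marginal zone markers higher in cKO. The follicular list had a mean centred log2 level of -0.372, 0.218 and -0.304 in cKO, against 0.115, 0.182 and 0.163 in WT. Its highest library, cKO replicate 2, was the lowest of all for Nfkbid, Nfkbiz and Tnfaip3, but not for Rel. Of 9 listed T cell markers 4 were measured, and Cd3d, Cd3e, Cd3g, Trbc2 and Bcl11b were not analysed here. The 4 had a summed level of 331 to 487 in cKO and 634 to 727 in WT, carried mostly by Lck, which fell. Cd4 stood at 12.4 to 14.2 in cKO and 18.7 to 29.4 in WT. Il7r had the opposite sign, at 9.81 to 24.6 in cKO and 4.39 to 18.6 in WT, which overlap. The summed level of 6 erythroid and platelet markers was 4543, 1229 and 724 in cKO, against 1321, 9778 and 646 in WT. That of 10 macrophage and monocyte markers was 2344.5, 1511.5 and 1578 in cKO, against 1582, 2413 and 1662 in WT. Both, and the sum of 3 neutrophil markers, were highest in WT replicate 2. The sums of the other marker lists were highest in other libraries. None of the measured markers of any list was at 0 in a library. The part of these genes in the results was not tested.

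**Figure D4:**
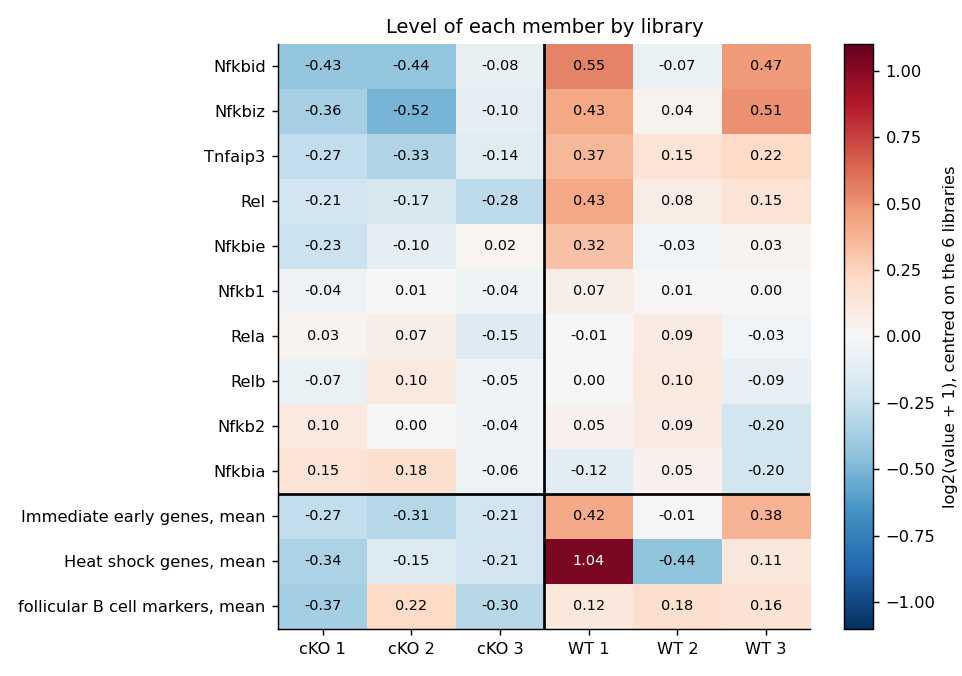
Level of each of the 10 genes (rows) in each library (columns, cKO left of the black line and WT right of it), as log2(normalised reads + 1) centred on the mean of the 6 libraries, blue below and red above 0. The lower rows are means over 3 gene lists. In WT replicate 2 the centred levels of Nfkbid and of the immediate early genes are -0.07 and -0.01, whereas in WT replicates 1 and 3 they are 0.38 to 0.55.

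Profiles closest to those of the called genes were looked up among 10170 genes with means of 100 or more, by the root mean square distance between centred log2 values over the 6 libraries. Nearest to Nfkbid were Trp53inp2 (distance 0.0591), 4933423P22Rik (0.0707) and Irf4 (0.0838), with 5 genes within 0.1. Nearest to Nfkbiz were Rasgrf2 (0.0903), Dnajb9 (0.0905) and Gbp8 (0.0985), with 4 genes within 0.1. Rel and Tnfaip3, whose differences were smaller, had more genes within that distance. The values were not scaled, so the counts depend on the size of the differences and do not rank how singular a profile is. Rel had 102 genes within 0.1, led by Pim3 (0.0313), Phka1 (0.0347) and Vamp2 (0.0376), and Tnfaip3 had 77, led by Cracr2a (0.037), Slc16a10 (0.0457) and Gpsm1 (0.0505).

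Around the 10 genes, 39 other regulators of NF-κB were measured, from the IκB kinase to deubiquitinases, and 3 of them fell and 0 rose by limma. At an unadjusted p under 0.05 there were 8, against 26.8% of all genes tested. The 3 are 7.69% of the list, against 4.97% of all genes tested that fell and 10.1% called either way. The median log2 difference of the list was -0.016. Tnip2, which encodes an A20-binding partner, had 559.8, 502 and 542 normalised reads in cKO, against 731, 764 and 670.1 in WT. Its groups stood apart and it fell by 25.9% (log2 difference -0.43 ± 0.08, limma adjusted p = 0.00986), a call that held in each of the 6 fits that left out a library. Ikbkb, the gene of the catalytic IκB kinase β, had 6280.1, 6758 and 6314 in cKO, against 8186, 7284.5 and 7324 in WT. Its call (log2 difference -0.23 ± 0.06, adjusted p = 0.0366) was lost without cKO replicate 1, cKO replicate 3, WT replicate 1 or WT replicate 3, with adjusted p values of up to 0.127. Otulin, the gene of the deubiquitinase for linear chains, had 1324, 1421 and 1444 in cKO, against 1549, 1635 and 1804 in WT. Its call (log2 difference -0.25 ± 0.07, adjusted p = 0.0456) was lost in all 6 such fits, with adjusted p values of up to 0.166.

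The other 4 roles held no called gene, and the differences of 3 of their most abundant members were close to 0. Bcl3, which encodes an atypical IκB protein, had a log2 difference of 0.02 (adjusted p = 0.927). Irak1, a kinase gene of the Toll-like receptor pathway, had 0.02 (adjusted p = 0.828) and Rbck1, of the linear ubiquitin complex, had 0.07 (adjusted p = 0.393). Birc3, the gene of cIAP2 and itself induced by NF-κB, had 7772, 7918 and 7615 normalised reads in cKO, against 6691, 7102 and 6832 in WT. All cKO libraries were above all WT libraries, and the log2 difference of 0.18 ± 0.05 just missed the threshold (limma adjusted p = 0.0503).

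Among 34 measured genes known as targets of NF-κB, 11 fell and 2 rose. That is 38.2% called, against 10.1% of all genes tested, and the median log2 difference was -0.19. The calls depended on single libraries, whereas the median stayed between -0.21 and -0.15 in the 6 fits that left out one. None of the 13 was called in every fit that left out a library, and the list had 2 lower and 1 higher without cKO replicate 1, 3 lower without cKO replicate 3, 1 lower without WT replicate 1 and none without WT replicate 3, where 16 passed an unadjusted p of 0.05, against 21.9% of all genes. In the same fits 6.33%, 3.54%, 3.48% and 3.35% of all genes were called. Without cKO replicate 2 there were 10 lower and 4 higher, with 11.7% of all genes called, and without WT replicate 2 there were 8 lower and 1 higher, with 7.79% of all genes called.

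By role, 2 of 7 survival genes fell. Cflar, whose product c-FLIP blocks death receptor signalling, had 2078, 2098 and 2004 normalised reads in cKO, against 2555, 2272 and 2524 in WT (log2 difference -0.25, limma adjusted p = 0.0279). Bcl2a1b, a pro-survival Bcl-2 family gene, gave -0.39 (adjusted p = 0.0402). It is uncertain, since its reads cannot be told safely from those of its near-identical paralogs, but it stays in the counts. Its paralog Bcl2a1d, named after its values were seen, gave -0.02 (adjusted p = 0.948). Of 9 surface genes 3 fell and 1 rose. Fas, the death receptor gene, had 34.8, 52.1 and 42.3 in cKO, against 109.8, 69.6 and 73.4 in WT (log2 difference -0.94, adjusted p = 0.033). Cd83, an activation marker, gave -0.41 (adjusted p = 0.0468) and Ccr7, whose product draws lymphocytes into T cell zones, gave -0.55 (adjusted p = 0.0436). Cd80, which encodes a costimulatory ligand, had 161, 94.8 and 110.4 in cKO, against 67.0, 69.6 and 64.6 in WT, and rose (log2 difference 0.82, adjusted p = 0.0305).

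Of 8 cytokine and chemokine genes 2 fell. Ccl3, a chemokine gene, had 115, 105 and 172 normalised reads in cKO, against 273, 186.5 and 329 in WT, and fell by 49.9% (limma adjusted p = 0.0217). Ccl4, another chemokine gene, had a log2 difference of -1.01 ± 0.28 (adjusted p = 0.0437), and both were lowest in WT in replicate 2. Of 10 genes of transcription and signalling 4 fell and 1 rose. Irf4, a transcription factor of B cell activation and plasma cell formation, had 5122, 5174 and 6693 in cKO, against 10152, 6739.6 and 11322 in WT (log2 difference -0.71 ± 0.16, adjusted p = 0.0237). Its centred levels were near those of Nfkbid, as its place among the closest profiles shows, though the order of the libraries was not the same. Myc gave -0.45 (adjusted p = 0.0428), Marcksl1, a protein kinase C substrate gene, -0.39 (adjusted p = 0.0411) and Plek, the gene of pleckstrin, -0.21 (adjusted p = 0.0267). Myc is also one of the immediate early genes, and Ccr7 one of the follicular markers. Ebi3, which encodes a subunit of interleukin 27, rose by 0.47 on the log2 scale (adjusted p = 0.028), though 23.4% of its exons lie opposite an antisense gene.

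**Figure D5:**
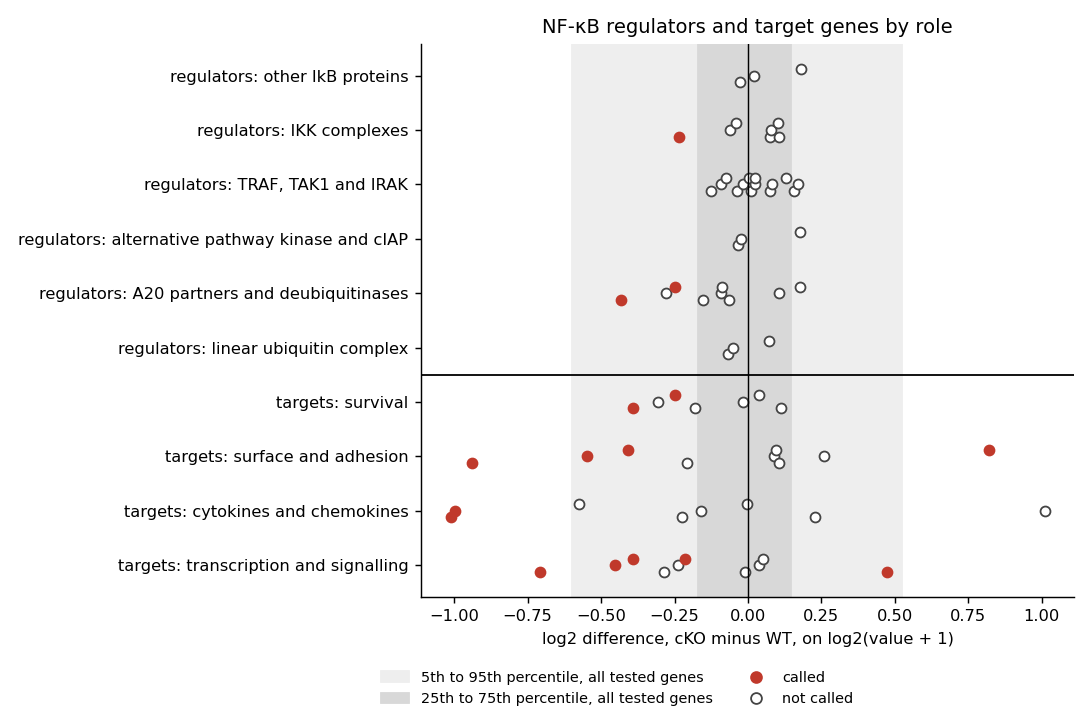
Log2 difference, cKO minus WT, on log2(normalised reads + 1) (x axis) of 39 regulators and 34 target genes of NF-κB, grouped by role (rows), filled where called and open where not. Dark and light grey bands span the 25th to 75th and the 5th to 95th percentile of all genes tested. Of the regulators 3 are filled, all left of 0, and of the targets 13, with 11 left of 0 and 2, Cd80 and Ebi3, right of it.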

How the data were processed

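The deposited table gives a signal per gene: read counts that the authors divided by one factor per library, since 100.0% of the values were whole reads within 0.02 of a read once multiplied back. The submitters' processing notes name STAR 2.5.2b, Trimmomatic 0.36, bcl2fastq 2.17 and mm9. How reads were counted and normalised, with which annotation and strand setting, is not given in the sources used here.

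Symbols and merged exon lengths came from GENCODE M21, which named 14824 of 14864 genes, and promoters from RefSeq. A value of 1 read was 0.891 to 1.10 deposited units, and counting error is small at the levels of the 10 genes. It is larger for genes with few reads, such as Fas, Cd4 and Il7r. limma 3.58.1 (lmFit, eBayes with a trend, two-sided, in R 4.3.3) was fitted on log2(deposited value + 1) for all 14855 genes with a mean of at least 10, with genotype as the only term and Benjamini-Hochberg adjustment over all of them. Percent changes and their 95% intervals were taken from that scale. Alternatives were other pseudocounts (0.5 and 5), filters, moderation, scaling, a replicate block, leaving out each library, and edgeR 4.0.16 and DESeq2 1.42.0 on the recovered reads. The limma, edgeR and DESeq2 fits were also run on simulated counts in which every gene had the same dispersion. That run checks the code and does not vouch for the calls in these libraries, whose spread it does not copy.

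The members, lists and comparisons were chosen with earlier results of these data known. A role of the regulator list and a follicular marker are not reported here and are left out of the counts. Named are all 10 genes, every called regulator and target, the most abundant member of a regulator role without a call, up to 3 of the most abundant genes of the other lists, and the 3 profiles closest to each called gene. Libraries of a group differed by more than sampling noise (chi-square per gene 6.37 to 12.7).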

Additional observations from a re-analysis of the deposited data

How the results depend on the processing

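Rel, Nfkbid, Nfkbiz and Tnfaip3 had lower levels in cKO in all 17 alternatives, with adjusted p values of 8.77e-06 to 0.103, 0.0025 to 0.146, 1.66e-06 to 0.112 and 4.43e-07 to 0.0658. The number of the 10 genes called higher was 0 in each. Without a trend limma called 215 genes in all, 0 of the 10 (4 lower at an unadjusted p under 0.05), 0 regulators (7) and 0 targets (16), where 23.5% of all genes passed that unadjusted p, with adjusted p values of 0.103 for Rel, 0.146 for Nfkbid, 0.112 for Nfkbiz and 0.0658 for Tnfaip3. Robust moderation called more genes in all, 1615 against 1494, but 2 of the 10, with 0.139 for Nfkbid and 0.0617 for Nfkbiz. Leaving out single libraries gave 2 to 4 of the 10 called lower, 496 to 1725 genes called in all, 1 to 3 regulators and 0 to 14 targets, and log2 differences of -0.078 to 0.029 for Rela, -0.068 to 0.038 for Relb and -0.044 to 0.10 for Nfkb2. Each of these fits had a library fewer, and the cause of the changes was not tested. Other scalings moved the median log2 difference of all genes to -0.0154 at most.

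Whether replicate numbers pair the libraries is not given in the sources. Deviations of same-numbered libraries correlated at -0.07, -0.02 and 0.15, and not every library correlated best with its own number. So few correlations cannot decide whether the libraries are paired. A limma fit with the replicate number as a block called 1551 genes and the same 4 of the 10. Its adjusted p values were 0.00939 for Rel, 0.00904 for Nfkbid, 0.000805 for Nfkbiz, 0.00442 for Tnfaip3 and 0.0591 for Nfkbia. With 3 libraries a group the spread is known poorly, and changes inside the intervals given for Rela, Relb, Nfkb1 and Nfkb2 cannot be told from none.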
